A study of Mus musculus with 5 samples.

Results

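The 4 connexin genes Gja1, Gjb2, Gjb5 and Gjb6 were followed in sorted hair follicle stem cells from mouse skin. They were taken by symbol from a deposited table of 55357 genes, in which each symbol occurred once, and all 4 were among the 15665 genes with enough reads to test. The PRC1 i2KO group (3 libraries, genotype K15-CrePR1:Ring1a-/-, Ring1bflox/flox) was set against the Control group (2 libraries, Ring1a-/-, Ring1bflox/flox). PRC1 is a Polycomb complex that places ubiquitin on histone H2A, and Ring1a and Ring1b are its catalytic subunits. The labels give Ring1a as absent from both groups, so the groups differ in K15-CrePR1, a Cre recombinase under a keratin 15 promoter that RU-486 activates, and in the Ring1b deletion it brings. Mice of both groups were treated topically with 1% RU-486 each day for 10 days, starting at postnatal day 50, and were sampled at postnatal day 75, which is 15 days after the last treatment. The sort kept cells with EpCAM, CD34 and high α6-integrin and without Sca1. Libraries carry the replicate number of their title (1, 2 and 3 in PRC1 i2KO, 1 and 3 in Control). Nothing in the labels ties libraries to separate animals, and the p-values cover only the spread among these samples, which may be technical.

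Connexins are membrane proteins whose subunits assemble into hemichannels, and hemichannels of adjoining cells dock to form gap junction channels that pass ions and small molecules from cell to cell. Keratinocytes use several connexins at once, and the mixture changes with position in the epidermis and the follicle. Gja1 encodes Cx43, the connexin found in most cell types, with a long cytoplasmic tail that is phosphorylated and binds scaffold proteins. Gjb2 and Gjb6 encode Cx26 and Cx30, which are best known from inherited deafness in humans and are low in resting epidermis between follicles but raised in wounded or hyperproliferative epidermis. Gjb5 encodes Cx31.1, a connexin best known from keratinocytes.

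The start regions of the 4 genes are shown because the genes behaved differently and their starts differ in CpG content, the sequence feature by which Polycomb target promoters are usually described. Each run holds 250 bases before and 50 bases after the annotated RefSeq start in build GRCm38.p6, read 5′ to 3′ on the gene's strand, with every CpG in capitals. The Gja1 region is chr10:56377050-56377349 on the plus strand, that of Gjb2 is chr14:57104653-57104952 on the minus strand, that of Gjb5 is chr4:127358115-127358414 on the minus strand, and that of Gjb6 is chr14:57133562-57133861 on the minus strand. The deposited table uses mm39, so these coordinates belong to the sequences alone.
Gja1: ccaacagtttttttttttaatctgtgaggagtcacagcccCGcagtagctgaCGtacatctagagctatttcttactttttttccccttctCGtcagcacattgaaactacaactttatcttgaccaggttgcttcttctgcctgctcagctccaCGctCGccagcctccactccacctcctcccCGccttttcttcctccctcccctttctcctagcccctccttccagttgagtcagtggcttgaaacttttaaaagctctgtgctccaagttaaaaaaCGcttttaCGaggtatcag
Gjb2: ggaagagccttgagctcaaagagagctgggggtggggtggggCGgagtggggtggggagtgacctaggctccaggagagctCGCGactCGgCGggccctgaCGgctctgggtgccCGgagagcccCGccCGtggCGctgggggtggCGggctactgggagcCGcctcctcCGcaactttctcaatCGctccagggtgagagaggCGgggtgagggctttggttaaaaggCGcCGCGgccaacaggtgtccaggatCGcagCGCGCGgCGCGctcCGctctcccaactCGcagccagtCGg
Gjb5: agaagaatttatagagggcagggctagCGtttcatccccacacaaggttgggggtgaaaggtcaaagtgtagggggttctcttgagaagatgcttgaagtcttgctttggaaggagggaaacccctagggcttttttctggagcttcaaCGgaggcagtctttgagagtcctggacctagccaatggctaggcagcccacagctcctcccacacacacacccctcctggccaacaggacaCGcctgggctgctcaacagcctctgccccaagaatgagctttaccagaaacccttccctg
Gjb6: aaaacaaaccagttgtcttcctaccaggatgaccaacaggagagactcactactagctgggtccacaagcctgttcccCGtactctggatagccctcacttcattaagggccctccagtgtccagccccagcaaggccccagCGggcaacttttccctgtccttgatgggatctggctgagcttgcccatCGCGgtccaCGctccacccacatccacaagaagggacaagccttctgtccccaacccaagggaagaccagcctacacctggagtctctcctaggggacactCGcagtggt

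The Gjb2 region held 27 CpG and was 70.0% G and C, more CpG than 84.5% of the 32851 RefSeq start regions of the same length. Those of Gja1, Gjb6 and Gjb5 held 8, 6 and 3 CpG, against a median of 7.0 over all regions. Gjb2 and Gjb6, the pair with the largest rises, held 27 and 6 CpG. Whether CpG content bears on the changes was not tested. A further 3 short motifs were searched on both strands. TGANTCA, the letters of the AP-1 site, occurred once in the Gja1 region, starting 19 bases before the start, and in 7.81% of all regions. GGGCGG, the letters of an Sp1 site, occurred 2 times in the Gjb2 region and in 35.7% of all regions. TATAAA occurred 1 time in the Gjb5 region, on the opposite strand, and in 13.6% of all regions. None of the 3 motifs was present in the Gjb6 region.

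The libraries held 9675996, 21102727 and 18657555 estimated reads in PRC1 i2KO and 8270419 and 32463173 in Control. Rnf2, the Ring1b gene, stood between 46.6 and 50.2 CPM (reads scaled to a common library size) in PRC1 i2KO and at 67.9 and 57.7 CPM in Control (log2 fold change -0.37, edgeR adjusted p = 0.0363), and Ring1, the Ring1a gene, stood between 19.6 and 28.6 CPM in PRC1 i2KO and at 30.3 and 27.5 CPM in Control (edgeR adjusted p = 0.36). Reads from outside a deleted exon do not check either genotype. The labelled cell type was checked with 12 bulge stem cell genes, of which 11 fell, beside 15.1% of all tested genes. The summed level of the bulge genes was 4765 to 6801 CPM in PRC1 i2KO and 21084 to 22191 CPM in Control. Cd34, the gene of the sorted surface marker, stood at 11.0, 12.3 and 37.2 CPM in PRC1 i2KO libraries and at 1548 and 1697 CPM in Control libraries, so the PRC1 i2KO libraries carry little RNA of the marker they were sorted on. In bulk libraries fewer cells of a type and less RNA per cell cannot be told apart.

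Transcripts of Gja1, Gjb2 and Gjb6 were higher in PRC1 i2KO and those of Gjb5 were lower. Gjb2 and Gjb6, the lowest of the 4 in Control, rose 19.5-fold and 20.0-fold, while Gja1, already the most abundant connexin, rose 1.93-fold and Gjb5 fell 2.23-fold. All 4 genes had an adjusted p under 0.05 in edgeR's quasi-likelihood test, as did 33.9% of all tested genes, of which 18.8% rose and 15.1% fell. A rise of at least 16-fold, as for Gjb2 and Gjb6, was called for 3.01% of tested genes. The 2 groups did not overlap for any of the 4, which held for 59.5% of tested genes. These shares are given as background, since the 4 genes were picked with earlier results of these data known. Gjb6 cleared the filter on low counts (about 0.536 CPM in at least 2 libraries) through the PRC1 i2KO libraries, whereas the other 3 exceeded it in both controls.

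Gja1 (ENSMUSG00000050953) stood at 138.8, 138.5 and 131.2 TPM (a level per unit of gene length, scaled alike in each library) in PRC1 i2KO replicates 1, 2 and 3 and at 91.0 and 67.4 TPM in Control replicates 1 and 3. The 3 PRC1 i2KO libraries lay close together and above both controls, which differed more from each other than the PRC1 i2KO libraries did. The mean was 136 ± 4.30 TPM in PRC1 i2KO (SD, n = 3) and 79.2 ± 16.7 TPM in Control (SD, n = 2). On counts the log2 fold change was 0.95 (SE 0.14, edgeR adjusted p = 0.000639).

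Gjb2 (ENSMUSG00000046352) stood at 21.8, 26.2 and 11.8 TPM in PRC1 i2KO replicates 1, 2 and 3, against 1.73 and 0.88 TPM in Control replicates 1 and 3. In reads these values rest on 308, 806 and 314 reads in PRC1 i2KO and on 18 and 36 in Control. All PRC1 i2KO libraries were above both controls, and replicate 3 was the lowest of them. Its exact 95% Poisson interval of 14.8 to 18.5 CPM did not meet those of replicate 1 (28.5 to 35.7 CPM) and replicate 2 (35.3 to 40.6 CPM). The PRC1 i2KO libraries thus differed beyond the counting error of independent reads. The log2 fold change was 4.29 (SE 0.51, edgeR adjusted p = 0.000815). It was 3.69 without Control replicate 3 (edgeR adjusted p = 0.0142), a 12.9-fold rise.

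Gjb6 (ENSMUSG00000040055) stood at 15.2, 15.3 and 7.91 TPM in PRC1 i2KO replicates 1, 2 and 3, against 0.12 and 0.93 TPM in Control replicates 1 and 3. PRC1 i2KO replicate 3 was again the lowest of its group, and both controls were far below it. The controls rest on 1 read and 33 reads, against 169, 393 and 175 reads in PRC1 i2KO. That 1 read gives an exact 95% Poisson interval of 0.00312 to 0.686 CPM, below the 0.707 to 1.44 CPM of Control replicate 3. The log2 fold change was 4.32 (SE 0.60, edgeR adjusted p = 0.00102). Its size hung on the controls, at 6.83 without Control replicate 3 (114-fold, edgeR adjusted p = 0.000882) and 3.86 without Control replicate 1 (14.5-fold, edgeR adjusted p = 0.000755). Such intervals cover only the counting error of independent reads. PCR copies of a molecule are counted as separate reads, so the intervals are too narrow where copies occur.

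Gjb5 (ENSMUSG00000042357) moved the other way. It stood at 8.56, 12.8 and 15.0 TPM in PRC1 i2KO replicates 1, 2 and 3, against 26.0 and 34.5 TPM in Control replicates 1 and 3. Every PRC1 i2KO library was below both controls, and replicate 1 was the lowest, unlike for Gjb2 and Gjb6. The mean was 12.1 ± 3.26 TPM in PRC1 i2KO (SD, n = 3) and 30.2 ± 5.98 TPM in Control (SD, n = 2). The log2 fold change was -1.15 (SE 0.24, edgeR adjusted p = 0.00451). Without Control replicate 3 it was -0.93 and did not pass (edgeR adjusted p = 0.0652).

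**Figure D1:**
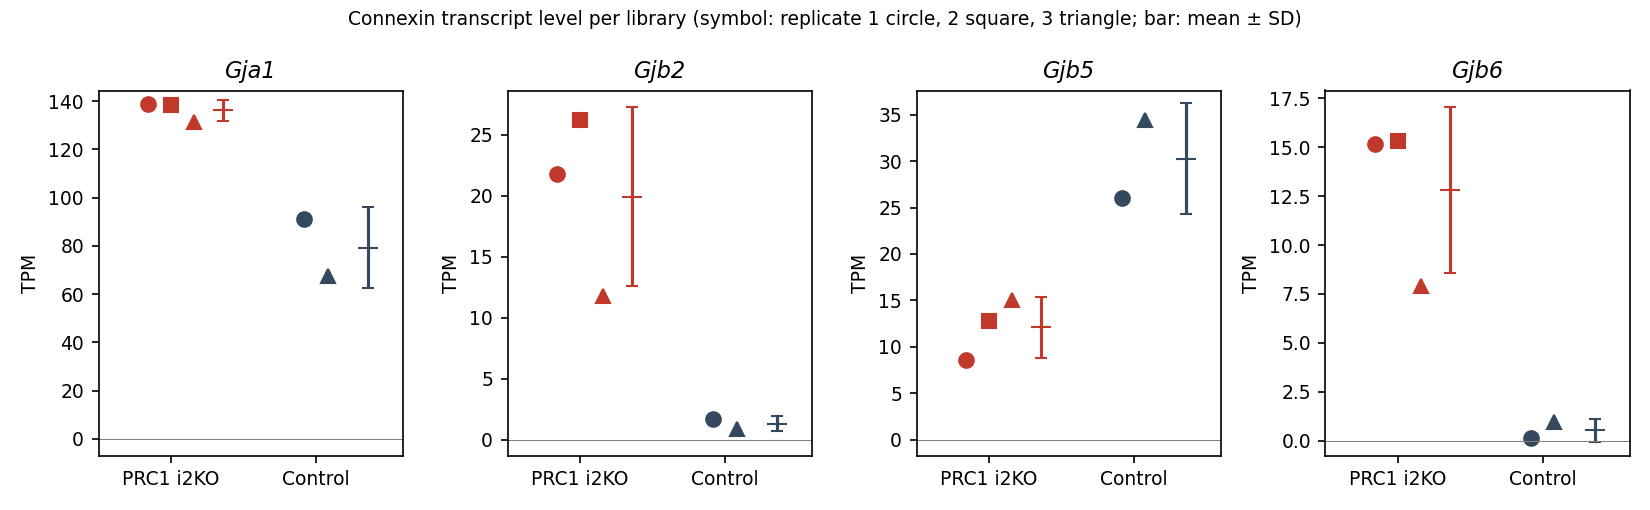
Deposited TPM (y axes, each from 0) of Gja1, Gjb2, Gjb5 and Gjb6 in 3 PRC1 i2KO libraries (red) and 2 Control libraries (blue-grey), 1 symbol per library, with the mean and SD of each group at its right. The groups do not overlap for any of the 4 genes, and PRC1 i2KO replicate 3 (triangle) is the lowest of its group for Gjb2 (11.8 TPM) and Gjb6 (7.91 TPM) and the highest for Gjb5 (15.0 TPM).

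The fold changes with each library left out kept their direction for all 4 genes in every fit that lacked 1 library. Gja1 ranged from 0.74 to 1.18 on the log2 scale, Gjb2 from 3.69 to 4.67, Gjb5 from -1.33 to -0.93 and Gjb6 from 3.86 to 6.83. In each of the 4, a fit without a Control library gave both ends of the range.

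**Figure D2:**
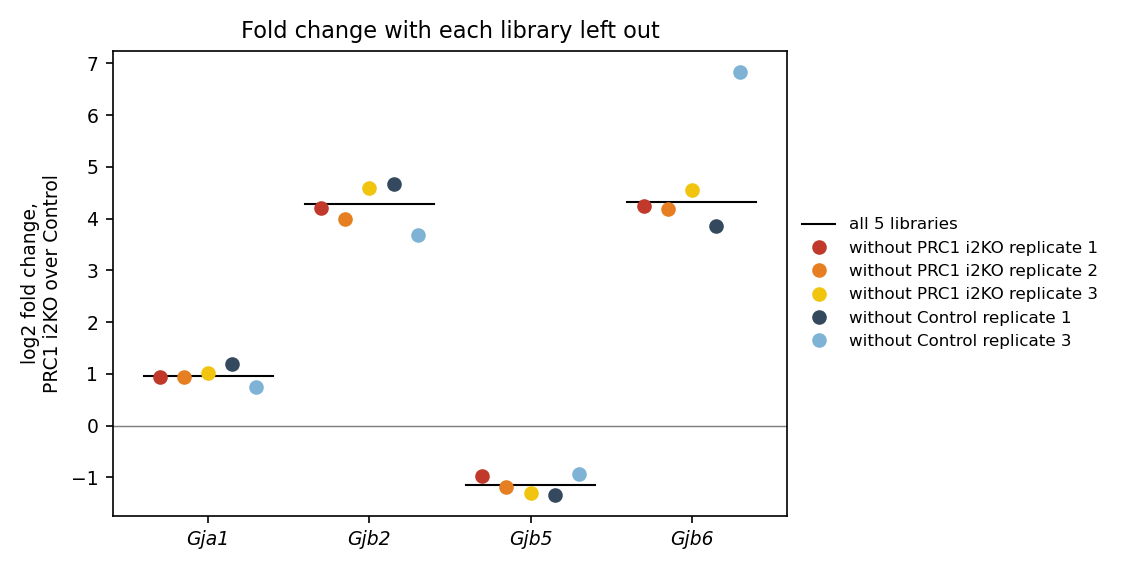
Log2 fold change of PRC1 i2KO over Control (y axis) for the 4 genes, with all 5 libraries (black line) and with each library left out in turn (coloured points). Points scatter little for Gja1 and Gjb5, and the point of Gjb6 without Control replicate 3 stands apart at 6.83.

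Levels of different connexins were compared on the deposited TPM. Summed over all 20 connexin genes the level was 311, 328 and 314 TPM in PRC1 i2KO and 188 and 182 TPM in Control. Among the 4 genes and Gja4, which encodes the vascular connexin Cx37, the order of mean levels in PRC1 i2KO was Gja1 (136 TPM), Gjb2 (19.9 TPM), Gjb6 (12.8 TPM), Gjb5 (12.1 TPM) and Gja4 (1.42 TPM). Gjb2 was above Gjb6 in each of the 3 libraries, by 1.43 to 1.71 times in TPM, while Gjb5 was below both in replicates 1 and 2 and above both in replicate 3. In Control the order was Gja1 (79.2 TPM), Gjb5 (30.2 TPM), Gjb2 (1.31 TPM), Gja4 (1.26 TPM) and Gjb6 (0.525 TPM). There Gjb2, Gja4 and Gjb6 lay within their spread of each other, and the order of each pair differed between the 2 libraries. Among these 5, Gjb5 thus came next after Gja1 in Control and had no fixed place against Gjb2 and Gjb6 in PRC1 i2KO.

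As a share of that sum, Gja1 made up 42.9% ± 1.55 in PRC1 i2KO (SD, n = 3) and 42.7% ± 8.17 in Control (SD, n = 2), a difference of 0.137 percentage points that was smaller than the spread (two-sided exact permutation p = 1.0). Gjb2 made up 7.01%, 7.97% and 3.76% in PRC1 i2KO and 0.922% and 0.483% in Control. Gjb6 made up 4.88%, 4.66% and 2.52% in PRC1 i2KO and 0.064% and 0.51% in Control. The share of Gjb5 was 2.75%, 3.88% and 4.78% in PRC1 i2KO, against 13.9% and 18.9% in Control. For Gjb2, Gjb5 and Gjb6 the groups did not overlap, and the two-sided exact permutation p was 0.2, the smallest that 3 libraries against 2 allow (0.267 when adjusted over the 4 genes). Within a library, Gja1 had 16.2, 10.9 and 8.75 times the TPM of Gjb5 in PRC1 i2KO and 3.50 and 1.96 times in Control. Gjb5 had 0.393, 0.487 and 1.27 times the TPM of Gjb2 in PRC1 i2KO, against 15.0 and 39.2 times in Control.

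**Figure D3:**
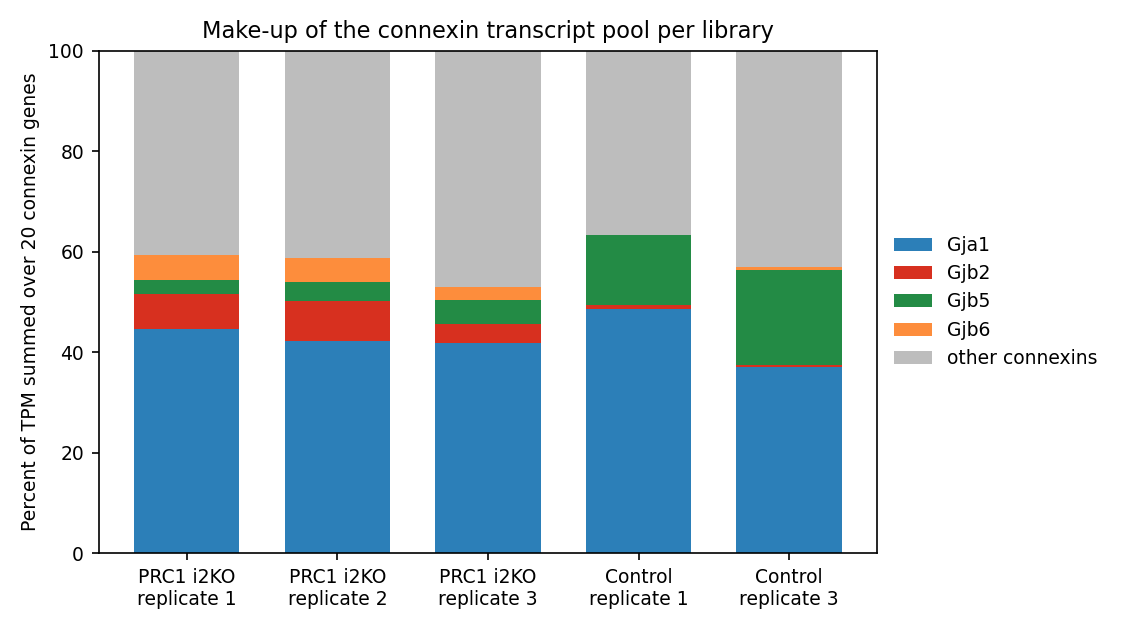
Share of each connexin gene in the TPM summed over 20 connexin genes (y axis, percent) in each library (x axis), the connexins other than the 4 together in grey, with the PRC1 i2KO libraries at the left. Gja1 (blue) takes 37.0% to 48.5% in all 5 libraries, while Gjb5 (green) takes 2.75% to 4.78% in PRC1 i2KO and 13.9% and 18.9% in Control.

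Gjb2 lies between Gja3 and Gjb6 among protein-coding genes (RefSeq annotation of GRCm38.p6). Gja3 had no read in any library, whereas Gjb2 and Gjb6 both rose. Their ratio within a library, Gjb2 over Gjb6 in TPM, was 1.43, 1.71 and 1.49 in PRC1 i2KO and 14.4 and 0.946 in Control, so the controls lay on both sides of the PRC1 i2KO libraries. The control at 14.4 is replicate 1, with 1 read of Gjb6. In the RefSeq annotation a long noncoding gene, Gm32912, overlaps Gjb2. The symbol Gm32912 was not found in the deposited table. How the authors' counting used strand is not given in the sources used here. Any reads of Gm32912 counted to Gjb2 could therefore not be told apart.

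Of all 20 connexin genes, 7 were tested, of which 5 rose, 1 fell and 1 did not pass, beside 18.8% that rose and 15.1% that fell over all tested genes. The median log2 fold change was 0.95, the value of Gja1 itself, against -0.01 over all tested genes. The 4 genes picked with earlier results known are among these 7, so no trend of the family is read from the count. Gja4 was the one that did not pass, with a mean of 1.42 ± 0.338 TPM in PRC1 i2KO (SD, n = 3) and 1.26 ± 0.856 TPM in Control (SD, n = 2) (edgeR adjusted p = 0.711). The other 13 had too few reads, and 8 of them, Gja3, Gja5 and Gjb1 included, had no read in any library. Pannexins form single-membrane channels that release ATP and are structurally akin to connexins. Panx3 stood at 11.9, 12.5 and 5.69 CPM in PRC1 i2KO, against 0.615 and 0.591 CPM in Control, with PRC1 i2KO replicate 3 again lowest (log2 fold change 4.05, SE 0.50, edgeR adjusted p = 0.000222). Panx1 stood at 16.5, 18.9 and 17.0 CPM in PRC1 i2KO, against 12.2 and 7.99 CPM in Control (log2 fold change 0.82, SE 0.24, edgeR adjusted p = 0.0248). On TPM the Panx1 groups overlapped and the call was lost (limma adjusted p = 0.421), as it was without PRC1 i2KO replicate 1 (edgeR adjusted p = 0.0511) or replicate 2 (0.0869) and without Control replicate 3 (0.209). Panx2 did not pass, at 1.66, 1.36 and 1.74 CPM in PRC1 i2KO and 0.985 and 0.933 CPM in Control (edgeR adjusted p = 0.437).

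**Figure D4:**
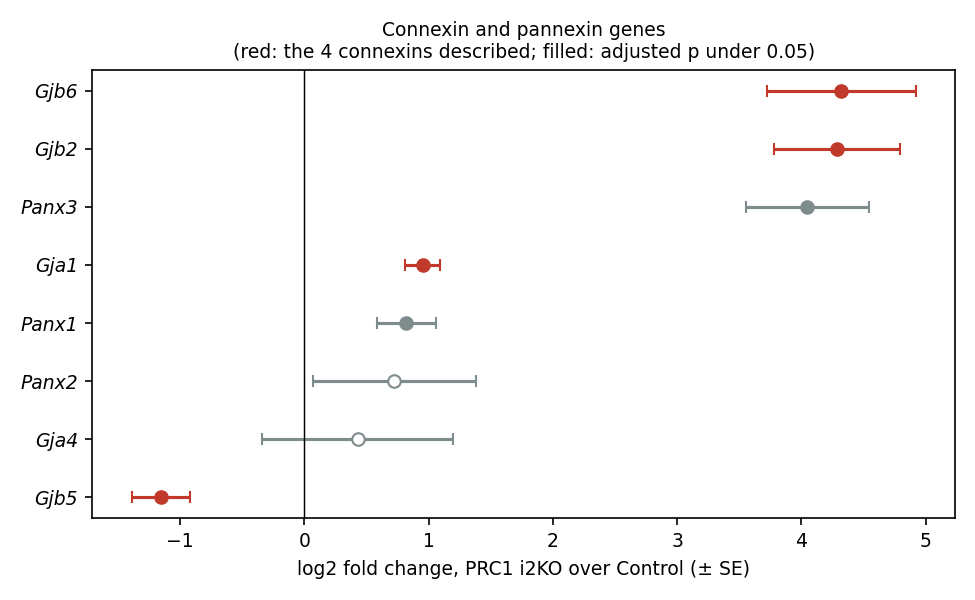
Log2 fold change of PRC1 i2KO over Control (x axis, bars 1 SE) for 8 tested connexin and pannexin genes, with the 4 genes described in red and genes past an adjusted p of 0.05 filled. Gjb6, Gjb2 and Panx3 lie above 4, and Gjb5, at -1.15, is the only one of these 8 below 0.

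Of 20 genes whose products bind, place or turn over connexins, 19 were tested, of which 5 rose, 5 fell and 9 did not pass, with a median log2 fold change of 0.08. Over all tested genes 18.8% rose and 15.1% fell, with a median of -0.01, and nothing particular to these genes is read from their count. Among the zonula occludens scaffolds, Tjp3 rose 5.32-fold (21.9 to 26.2 CPM in PRC1 i2KO, 4.92 and 4.29 CPM in Control, edgeR adjusted p = 3.22e-05). Tjp1, which encodes ZO-1, the scaffold that binds the tail of Cx43, stood at 124, 129 and 115 CPM in PRC1 i2KO and 103 and 105 CPM in Control and did not pass (edgeR adjusted p = 0.0946). Cdh1, the E-cadherin of adherens junctions, rose 1.66-fold, and Ezr, which encodes the membrane linker ezrin, rose 1.67-fold. Ubqln4, whose product binds Cx43 on its way to the proteasome, rose 1.23-fold (edgeR adjusted p = 0.0388), a call lost with any 1 library left out other than PRC1 i2KO replicate 3. Of the genes of kinases that phosphorylate Cx43, Prkca and Src were lower. Prkca, protein kinase C alpha, fell 2.52-fold (16.1 to 22.3 CPM in PRC1 i2KO, 41.0 and 53.6 CPM in Control, edgeR adjusted p = 0.000423), and Src fell 1.82-fold (79.9 to 99.8 CPM in PRC1 i2KO, 160 and 171 CPM in Control, edgeR adjusted p = 0.000394). The kinase genes Prkcd and Csnk1d stood at log2 fold changes of 0.15 and 0.08 and did not pass. Cav1, a caveolin of membrane rafts, fell 1.80-fold and Cav2 fell 1.48-fold. Ywhaq, a 14-3-3 protein, fell 1.25-fold (edgeR adjusted p = 0.0274). The calls of Cav2 were lost without Control replicate 1 (edgeR adjusted p = 0.173) or PRC1 i2KO replicate 1 (0.0672), and those of Ywhaq without either control (0.1 and 0.133) or without PRC1 i2KO replicate 1 or 2 (0.114 and 0.107). On TPM the fall of Prkca did not pass (limma adjusted p = 0.122).

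For each of the 4 genes the 3 genes with the most similar profile were found among 9336 genes of at least 10 CPM, as the smallest root-mean-square difference in centred log2 CPM over the 5 libraries. Gja1 was nearest to Macir (difference 0.0247), Hmgn5 (0.0437) and Stk40 (0.0494). Gjb2 was nearest to Bcl3 (0.14), Ctsc (0.147) and Kif23 (0.172). Like Gjb2 they had their lowest PRC1 i2KO level in replicate 3, a likeness that follows from how they were picked. Bcl3 stood at 24.5, 31.6 and 16.7 CPM in PRC1 i2KO and 2.09 and 1.03 CPM in Control. Gjb6 was nearest to Nek2 (0.254), Cdca8 (0.395) and Igf2bp2 (0.404). These were likewise low in Control replicate 1, at 0.246, 0.369 and 0.369 CPM. Gjb6 had 1 read in that library, and this value enters all its differences on this measure. Gjb5 was nearest to Siae (0.0837), Klhdc1 (0.0978) and Rtn4r (0.107). Gjb2 and Gjb6 differed by 1.09 from each other on this measure, and Gjb5 differed by 1.12 from Gja1, 2.63 from Gjb2 and 3.04 from Gjb6.

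Markers of other epithelial states were mostly higher in PRC1 i2KO, as were Gja1, Gjb2 and Gjb6, whereas Gjb5 was lower. The counts of these lists stand beside 18.8% of all tested genes that rose, and the lists were chosen with earlier results of these data known. Of 10 markers of basal epidermis and infundibulum 9 rose, and their summed level was 8639 to 8911 CPM in PRC1 i2KO and 628 to 888 CPM in Control. All 12 sebaceous gland markers rose, with sums of 3554 to 4189 CPM in PRC1 i2KO and 646 to 671 CPM in Control. Some of them cleared the filter on low counts through the PRC1 i2KO libraries. Examples are Pparg (0 and 0.622 CPM in Control replicates 1 and 3) and Mc5r (0.369 and 0.156 CPM). Of 14 suprabasal markers 13 rose, with sums of 2876, 3563 and 4068 CPM in PRC1 i2KO replicates 1, 2 and 3 and 1302 and 1293 CPM in Control replicates 1 and 3. All 12 markers of cycling cells rose, with sums of 815, 881 and 641 CPM in PRC1 i2KO replicates 1, 2 and 3 and 157 and 119 CPM in Control replicates 1 and 3. PRC1 i2KO replicate 3, lowest in Gjb2 and Gjb6, was thus lowest of its group in cycling markers and highest in suprabasal and bulge markers. It was also lowest of its group in sebaceous gland markers (3554 CPM) and in those of basal epidermis and infundibulum (8639 CPM). None of the markers of these 4 lists was at 0 in all libraries. The part of these cells in the connexin differences was not tested.

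**Figure D5:**
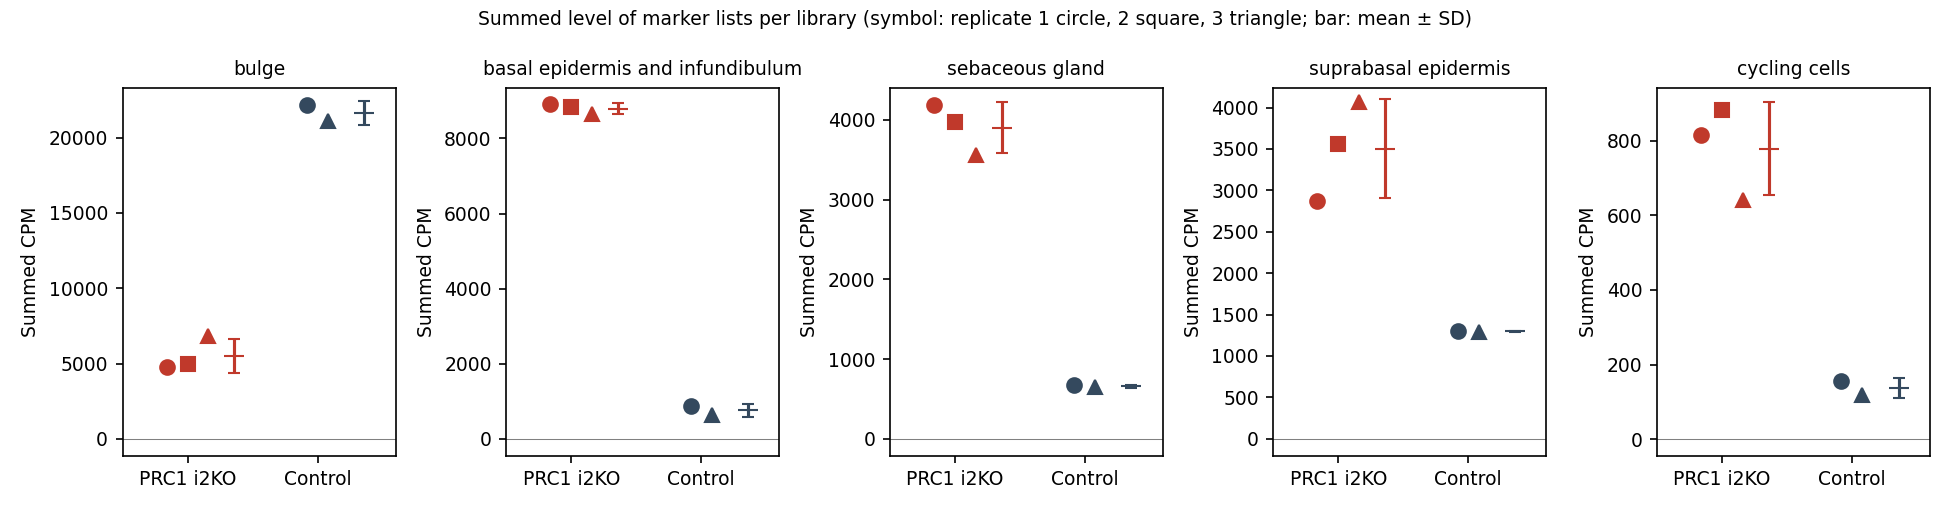
Summed CPM (y axes) of 5 marker lists in 3 PRC1 i2KO libraries (red) and 2 Control libraries (blue-grey), with the mean and SD of each group at its right. Bulge markers lie between 4765 and 6801 CPM in PRC1 i2KO and between 21084 and 22191 CPM in Control, while the other 4 lists are higher in every PRC1 i2KO library.

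Markers of cells outside the epithelium, and of other follicle layers, were read in the same way. The 6 fibroblast markers, a cell type rich in Gja1, summed to 32.7 to 33.0 CPM in PRC1 i2KO and 71.8 and 73.8 CPM in Control, with 1 rise (Dcn) and 3 falls among the 4 tested. The 6 endothelial markers summed to at most 3.90 CPM in any library, 2 were tested and neither passed, and Cldn5 had no read. Of 6 immune markers 4 were tested and Cd74 alone rose. The immune markers summed to 68.2 to 102 CPM in PRC1 i2KO and 23.5 and 27.4 CPM in Control, most of it from Cd74, and Lyz2 had no read. Of 6 melanocyte markers 4 were tested, and Dct rose and Mitf fell. The melanocyte sums were 63.1 to 67.7 CPM in PRC1 i2KO and 156 and 169 CPM in Control. Mitf made up most of each sum, at 39.1 to 41.2 CPM in PRC1 i2KO and 151 and 163 CPM in Control. Dct, Pmel, Tyr and Tyrp1 were instead higher in every PRC1 i2KO library than in both controls, and Mlana overlapped. Of these, Pmel and Tyrp1 did not pass, and Tyr and Mlana had too few reads to test. Of 5 Schwann cell markers Sox10 and Egr2 rose, with sums of 270 to 497 CPM in PRC1 i2KO and 64.8 and 117 CPM in Control, most of it from Egr2. Of 9 markers of the inner root sheath and companion layer, which are epithelial layers of the follicle, 7 were tested. Krt27 and Tchh rose, Krt6a and Krt75 fell, and Krt73 had no read. The sums were 293 to 364 CPM in PRC1 i2KO and 924 and 1000 CPM in Control. Most of the Control sum was Krt6a, at 738 and 807 CPM in Control and 82.7 to 132 CPM in PRC1 i2KO. In the sort gate, Epcam rose 2.77-fold, Itga6 (edgeR adjusted p = 0.186) and Ly6a (0.108) did not pass, and Ly6a stood at no more than 2.28 CPM in any library. The part of these cells was not tested.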

How the data were processed

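RNA from 50000 sorted cells per sample was made into polyadenylate-selected libraries, per the labels' protocols. Per the submitters' processing notes, the build was mm39 and the tools included RSEM 1.3.3, STAR 2.7.9a and DESeq2 1.38.2, with no roles given. The authors deposited expected counts (9.06% of genes have a fractional value, none of the 20 values of the 4 connexins) and TPM per gene and library. Expected counts were rounded and tested in edgeR 4.0.16 (R 4.3.3) with filterByExpr, TMM scaling and a robust quasi-likelihood F test on genotype, with Benjamini-Hochberg adjustment across 15665 genes. The SE is the log2 fold change divided by the square root of F. Alternatives used DESeq2 1.42.0, limma 3.58.1 on log2(TPM + 1) and log2(TPM + 0.1), other scalings and filters, a replicate block and each library left out. Libraries of a group differed beyond sampling noise (chi-square divided by its degrees of freedom, 10.1 to 41.8), and none was merged. The fit was tested on simulated data. Named genes were the 4 members, other connexins and pannexins of at least 1 CPM, called partners, the 3 nearest profiles per member and the sort gate; Tjp1, Prkcd, Csnk1d and single marker genes are named outside that rule, after their values were seen. The members, lists and tests were chosen with earlier results of these data known. Some genes of the lists are not reported here. Promoter sequences are RefSeq's, for 4 of 4 members.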

Additional observations from a re-analysis of the deposited data

How the results depend on the processing

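Among left-out libraries, a control moved the fold changes of the 4 connexins most, and low connexins are limited by reads. Gja1, Gjb2 and Gjb6 kept their direction and their call in all 14 alternatives (highest adjusted p = 0.0228, 0.0142 and 0.00783), with log2 fold changes of 0.74 to 1.18, 3.14 to 4.67 and 3.18 to 6.83. Gjb5 kept them in 13, from -1.34 to -0.97, and lost its call without Control replicate 3 (-0.93, adjusted p = 0.0652; -1.33 to -0.93 with a library left out). On log2(TPM + 1) the median over all genes was -0.13, against -0.01, and the log2 fold changes were 0.79, 3.14, -1.27 and 3.18 for Gja1, Gjb2, Gjb5 and Gjb6, all still called. That scale understates changes of low genes. The number of all genes that rose, 2939, was 1866 on log2(TPM + 1), 1881 on log2(TPM + 0.1) and 1410 on unfiltered TPM, against 1963 to 3099 with a library left out. The number that fell, 2371, ranged from 1359 to 2757 with a library left out. Of connexins, 4 to 5 rose in each alternative, and the count that fell, 1, was 0 to 1 with a library left out and 2 on unfiltered TPM. Partners that rose numbered 3 on unfiltered TPM, and those that fell 3 to 5 with a library left out. Gja4, not called, ranged from -0.22 without Control replicate 3 to 1.28 without Control replicate 1. The difference in the share of Gja1 changed sign, from -5.64 to 5.91 percentage points with a library left out. For the shares of the 4 genes, the sum over the 4 alone or CPM in place of TPM turned no direction. With the replicate number of the titles as a replicate block, 2521 genes rose and 1900 fell, and log2 fold changes were 0.94, 3.86, -1.22 and 4.03 for Gja1, Gjb2, Gjb5 and Gjb6, all called, while Ubqln4 (adjusted p = 0.0859) and Ywhaq (0.0695) lost their calls. PRC1 i2KO replicate 2 has no control of its number, so it adds nothing to the difference between groups in the block fit. The labels do not say that a number pairs libraries, and the control titled replicate 3 carries another number in its description. Deviations of same-numbered libraries correlated at 0.074 for number 1 and 0.115 for number 3. With 2 controls their deviations mirror each other, so these correlations are not separate checks. The cause was not tested.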

Other observations

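Among connexins too low to test, Gjc1, which encodes Cx45, had 4, 6 and 8 reads in PRC1 i2KO and 1 and 0 reads in Control, a ratio of 14.5 for the summed reads per total depth (exact 95% interval 2.29 to 605). Gjd3 had 11 reads in PRC1 i2KO replicate 3 and none in any other library. The endothelial genes Cdh5 and Emcn likewise had 18 and 6 reads in PRC1 i2KO replicate 3 and none elsewhere. The other endothelial markers did not share this pattern. Pecam1 had 0, 12 and 33 reads in PRC1 i2KO and 8 and 8 in Control. Kdr had 0, 3 and 8 against 3 and 11, Tek had 0, 21 and 9 against 5 and 12, and Cldn5 had none. Gja6 had 0, 1 and 15 reads in PRC1 i2KO and 2 and 14 in Control, so its groups overlapped. Gjc3 had 0, 3 and 0 reads in PRC1 i2KO and 1 and 0 in Control, a ratio of 2.42 (exact 95% interval 0.194 to 127). These intervals cover only the counting error of independent reads.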
